A study of Solanum tuberosum with 8 samples.

Results

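The MYB genes described here are the 83 distinct genes that the study's supplementary list of differentially expressed transcription factors assigns to the MYB family. They were taken from 1157 genes in that list and 42667 genes in the deposited expression table, which holds all 83. The list was made by the study from genes that differed from 0 h in tubers of the potato cultivar X2, so the changes of X2 against 0 h chose the members and are given as a description, from which nothing is read as a test. The list names 70 of the members for the 4 h sample, 65 for 12 h and 26 for 24 h. The study states that the MYB genes it found at 24 h were all down-regulated. MYB genes that rise only at 24 h may therefore be missing from the members. Of the members, 7 were predicted by the authors from their own assembly and the others carry PGSC identifiers of the reference annotation. A description was found for 9 members in the study's tables, 7 of which name Myb, and the other two are a YUP8H12R.21 protein and a conserved gene of unknown function. The remaining members are named by identifier only.

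RNA was sequenced from tubers of the cultivars D6 and X2 when freshly cut (0 h) and at 4, 12 and 24 h after the wound. X2 is the tetraploid cultivar Xingjia 2, of which tubers were cut transversely, held humid and sampled from skin to pith, with tissue of several tubers pooled in each replicate. D6 is named by the labels alone, and nothing read here says whether its replicates came from separate tubers, so its p-values measure the spread between these samples. The 21 libraries used comprise 10 from D6, where 0 h has 1 library and every later hour has 3, and 11 from X2, where 24 h has 2 and every earlier hour has 3. Levels are given as FPKM, which corrects the fragments of a gene for its length and for library size, so they can be set side by side between genes. Reads on genes numbered 24226307 to 35649617 per D6 library and 29746314 to 44921591 per X2 library. Pearson's r of log2(FPKM + 1) across genes, which are not independent replicates, was 0.990 to 0.994 over 9 pairs of D6 libraries of the same hour and 0.993 to 0.997 over 10 such X2 pairs. The tuber storage protein Patatin-3-Kuras 1 had 11.8 FPKM in D6 and 19.0 in X2 at 0 h. The gene for the photosystem II 22 kDa protein, a chloroplast protein, reached 55.9 FPKM in D6 and 94.0 in X2 at 24 h, from at most 1.34 at 0 h. The other tuber markers looked at were low in fresh tubers. Proteinase inhibitor type-2 CEVI57 had 0.0343 FPKM in D6 and 1.126 in X2 at 0 h, and Proteinase inhibitor IIa started at 0.0652 in D6 and 0.0185 in X2 and reached 14.8 and 2.02 after 4 h. The other gene for a chloroplast protein, a chlorophyll a/b-binding protein, had 13.8 FPKM in D6 and 5.43 in X2 at 24 h, and at most 0.271 in fresh tubers. The part of these shifts in the results was not tested. In whole tissue, fewer cells of a type and less RNA per cell cannot be told apart.

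MYB proteins are transcription factors that bind DNA through repeats of a helical domain named after an oncogene of a bird virus. In plants, the class with a pair of such repeats is large and is known for the control of phenylpropanoid and flavonoid synthesis, cell identity and organ boundaries. Proteins with a single repeat take part in the circadian clock and in flower shape. A cut potato tuber closes its wound with suberin and makes phenolic compounds, which draw on the phenylpropanoid pathway.

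By the hour of the highest X2 mean, 33 members fell to 0 h, 23 to 4 h, 8 to 12 h and 19 to 24 h. For 17 of the 83, the highest and second highest means differed by less than the larger of their SDs, 5 of them in the 0 h group, 2 in the 4 h group, 4 in the 12 h group and 6 in the 24 h group. The highest mean itself was 0.224 to 327 FPKM in the 0 h group, with a median of 10.2, and 1.002 to 106 FPKM in the 4 h group, with a median of 9.72. Members highest at 12 h were at lower levels, 0.448 to 16.8 FPKM with a median of 3.52. Those highest at 24 h spanned 0.854 to 86.7 FPKM, with a median of 3.90. The fall and the rise were not of one size. Between its highest and lowest hour in X2, the median member moved by 1.79 on the log2(FPKM + 0.1) scale in the 0 h group, by 3.15 in the 4 h group, by 3.52 in the 12 h group and by 3.48 in the 24 h group.

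**Figure D1:**
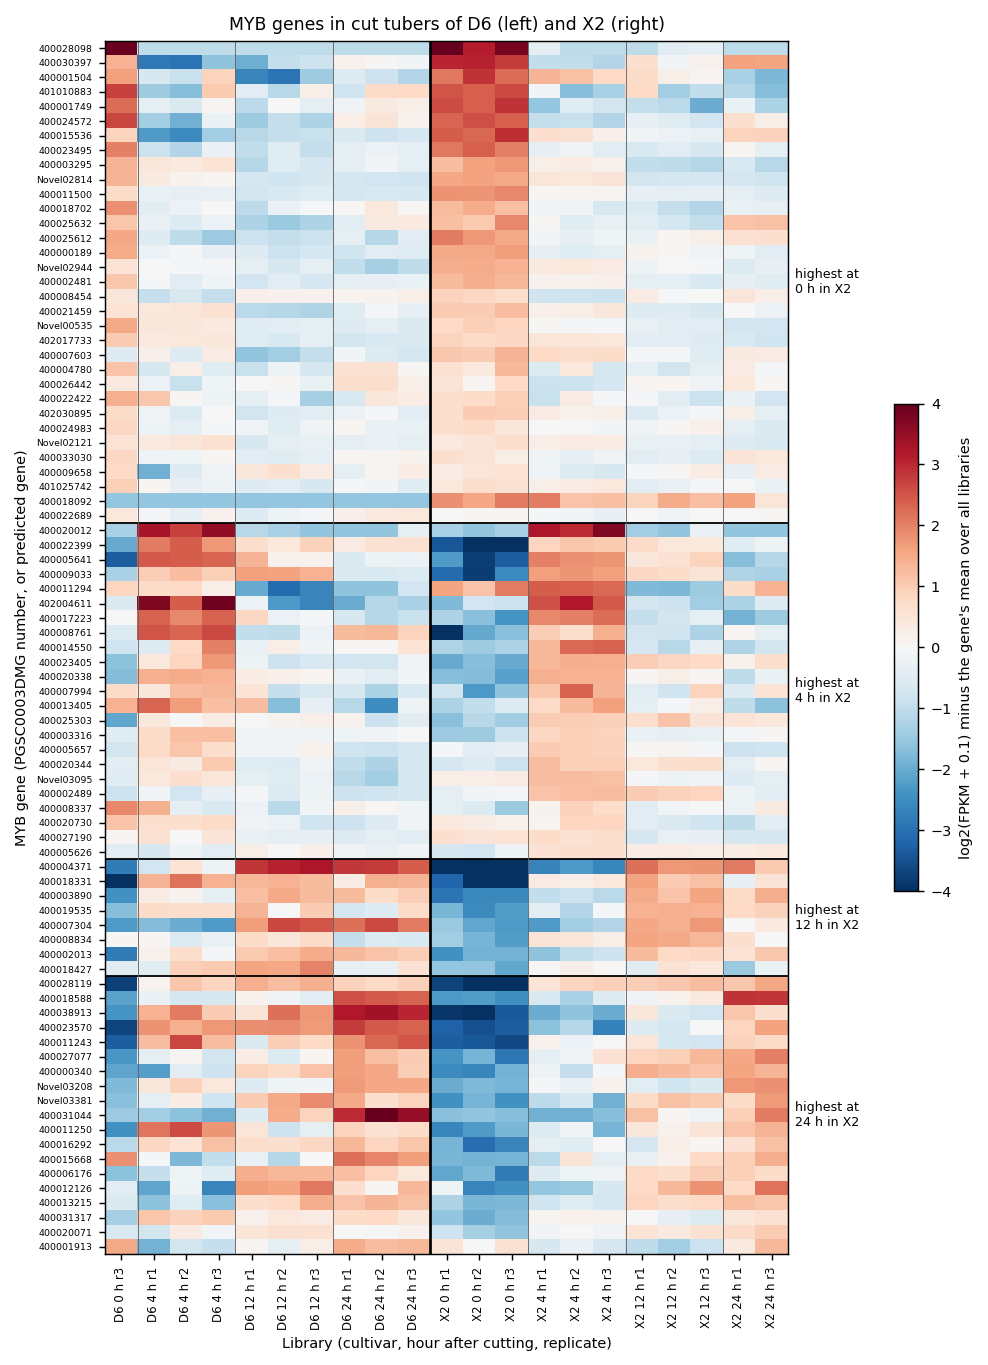
Level of the 83 MYB genes (rows) in 10 D6 libraries (left of the thick line) and 11 X2 libraries (right), as log2(FPKM + 0.1) minus the gene's mean over all 21 libraries, with rows grouped by the hour of the highest X2 mean. The grouping itself makes the blocks of high values move from 0 h to 24 h down the rows in X2. The D6 columns follow them for most rows, with 65 of 82 members highest at the same hour in both cultivars. Among genes with a mean of at least 0.5 FPKM in both cultivars, it was 77.0% of the members and 73.2% of all genes.

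Differences were fitted with limma on log2(FPKM + 0.1). A gene counted as called when its log2 fold change (log2FC) was 1 or more in size with a raw p no higher than 0.01, and each adjusted p given was corrected across every gene of the fit by the Benjamini-Hochberg method. The 0.1 is a pseudocount, and a pseudocount of 1, tried as an alternative, shrinks the changes of genes at low levels, so its value is given where it ended a call or moved it by over 1.5 times. Genes passed the filter with a mean of at least 0.5 FPKM over the compared libraries. A member below that level in 1 group passed through the other alone. For such members a lack of overlap or an adjusted p describes the values, and nothing more is read from it. In X2, 49 of 69 tested members were called at 4 h against 0 h, where 51.2% of all genes were, 30 of them up-regulated (35.4% of all genes) and 19 down-regulated (15.8%). At 12 h the call covered 54 of 69 members (54.1% of all genes), 28 up (36.6%) and 26 down (17.5%), and at 24 h 50 of 70 (50.5% of all genes), 26 up (33.5%) and 24 down (17.0%). These contrasts made the list, so nothing is read from the counts. Of the 79 members that passed the filter in at least 1 of the 3 contrasts, 73 were called in at least 1 and 30 in all 3. These shares were not counted over all genes, so nothing is read from them. The 6 never called reached 0.20 to 0.94 in size of log2FC, and 4 members passed the filter in none. Scaling moved these splits. The median log2FC of all X2 genes was 0.47, 0.47 and 0.37 at 4, 12 and 24 h, and -0.05, -0.02 and -0.02 with median-of-ratios size factors, under which 25 members were up and 27 down at 4 h, and 23 up and 33 down at 12 h, of the same 69 tested at each hour. The share of all genes called with size factors is not set beside these counts, so nothing is read from them.

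The 0 h group held the most abundant member, PGSC0003DMG400024572, for which the files give no name. It had 381 FPKM in the 0 h library of D6, against 300.1, 362 and 318 FPKM in the 3 X2 libraries of that hour. At 4 h it was at 23.4, 15.8 and 50.6 FPKM in D6 and 30.9, 32.7 and 26.5 in X2, so the cultivars overlapped at that hour and every library of 4 h lay far below all of 0 h. This gene alone made up 30.6% of the summed FPKM of the 83 members in the 0 h library of D6 and 21.9 to 25.6% in those of X2, and 1.73 to 5.49% and 2.99 to 3.56% at 4 h. The summed FPKM of all members was 1247 in the 0 h library of D6 and 1398 ± 61.3 in X2 (SD, n = 3), and at 12 h it was 686 ± 18.9 in D6 and 675 ± 21.7 in X2 (SD, n = 3 each). By 24 h the gene was higher again within D6, at 71.9, 86.5 and 66.9 FPKM against 22.5, 31.2 and 25.7 at 12 h, a log2FC of 1.504 ± 0.15 (SE, adjusted p = 0.000571).

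Myb RL3 (PGSC0003DMG400028098) ranked first among the members for its fall from 0 h in X2 on the log2 scale with the pseudocount. With 1 read at most in any later X2 library, the size of its fall depends on the pseudocount. Nothing is therefore read from this rank. RADIALIS, the founder of the RL group in snapdragon, is a protein with a single MYB repeat that shapes the upper petals. Myb RL3 had 3.05 FPKM in the 0 h library of D6 and 4.32, 1.69 and 2.79 FPKM in those of X2. Not a read was found in any of the 9 later D6 libraries, and in the 8 later X2 libraries it had 1 read at most. With 3 reads per library as the limit that a count of 0 allows, its level was at least 14.0-fold lower in D6 at 4 h than at 0 h, and at least 16.9-fold lower in X2 at 24 h than at 0 h. These limits cover counting error only.

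The other members of the 0 h group named for the size of their change were PGSC0003DMG400030397, PGSC0003DMG400001504, PGSC0003DMG401010883 and PGSC0003DMG400001749. Their D6 libraries at 0 h held 7.39, 4.46, 2.09 and 4.37 FPKM, and their X2 means at that hour were 22.4, 7.997, 1.79 and 5.82 FPKM. In X2, PGSC0003DMG400030397 dipped to 1.29 ± 0.108 FPKM at 4 h and stood at 3.34 ± 0.906 at 12 h (SD, n = 3 each) and at 8.60 and 8.52 at 24 h. It took the same course in D6, at 0.469 ± 0.320 FPKM at 4 h and 2.88 ± 0.291 at 24 h (SD, n = 3 each), a log2FC of 2.52 ± 0.37 for 24 h against 4 h (SE, adjusted p = 0.000726, or 1.42 with a pseudocount of 1). It passed the filter for this step through 24 h alone. PGSC0003DMG400001504 instead went on falling in X2, to 0.493 and 0.323 FPKM at 24 h. For 29 of the 33 members of this group, every D6 library at 4 h lay below the single D6 library at 0 h, and for 32 of 33 every library at 12 h did, a count without a test since 0 h had 1 library. This count was not made over all genes, so nothing about the members is read from it. Of 4742 genes highest at 0 h in X2, with means of at least 0.5 FPKM, 83.9% were highest at 0 h in D6.

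The 4 h group held transient members. MYB117 (PGSC0003DMG400020012) belongs to the factors that in Arabidopsis mark organ boundaries. At 4 h it had 2.85, 1.91 and 3.39 FPKM in D6 and 2.72, 2.27 and 3.84 FPKM in X2. At every other hour it was at 0 to 0.137 FPKM in D6 and 0 to 0.147 FPKM in X2, so its 4 h libraries stood clear of all others in both cultivars. The D6 libraries of 4 h held 101, 73 and 148 of its reads, those of 12 h held 2, 1 and 0, and those of 24 h held 0, 0 and 7. At so few reads the size of the change depends on the pseudocount, with a log2FC of -4.36 for 24 h against 4 h, -6.76 with a pseudocount of 0.01 and -1.81 with 1, so none is given as its size. MYB84 (PGSC0003DMG400014550), which in Arabidopsis acts in the formation of side shoots, was also highest at 4 h. It had 0.0884, 0.369 and 0.988 FPKM in D6 at that hour against 0.569, 1.19 and 1.29 FPKM in X2, and at most 0.291 in D6 and 0.115 in X2 at the others. Its D6 libraries at 4 h differed by more than those of any other hour and overlapped them.

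Other members of the 4 h group were more abundant. PGSC0003DMG400022399 had 3.68 FPKM in the 0 h library of D6 and 63.9, 81.0 and 50.1 at 4 h, against 1.36, 0.834 and 0.623 FPKM at 0 h in X2 and 27.5, 32.9 and 31.6 at 4 h. At 24 h it was at 19.2, 22.8 and 23.2 FPKM in D6 and 10.8 and 13.2 in X2, below all 4 h libraries and above all at 0 h. PGSC0003DMG400005641 had 27.7, 27.6 and 25.9 FPKM at 4 h in D6 and 20.8, 18.3 and 17.4 in X2, from 0.423 at 0 h in D6 and at most 0.974 in X2. The most abundant member at 4 h, PGSC0003DMG400003316, was at 95.01, 132 and 133 FPKM in D6 and 101, 111 and 105 in X2, and by 12 h at 52.0 ± 0.341 in D6 and 46.6 ± 1.21 in X2 (SD, n = 3 each). PGSC0003DMG402004611 had 0.502, 0.0452 and 0.0149 FPKM at 12 h in D6 against 9.24, 3.68 and 10.4 FPKM at 4 h. Its log2FC was -5.06 ± 0.67 (SE, adjusted p = 0.000558), the largest fall of the tested members in this step. With a pseudocount of 0.01 it was -6.32 and MYB117 fell further (-6.72), and with 1 it was -2.81. Nothing is therefore read from this rank or size. PGSC0003DMG402004611 passed the filter for this step through 4 h alone. Its single D6 library of 0 h held 0.379 FPKM, within the range of 12 h.

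**Figure D2:**
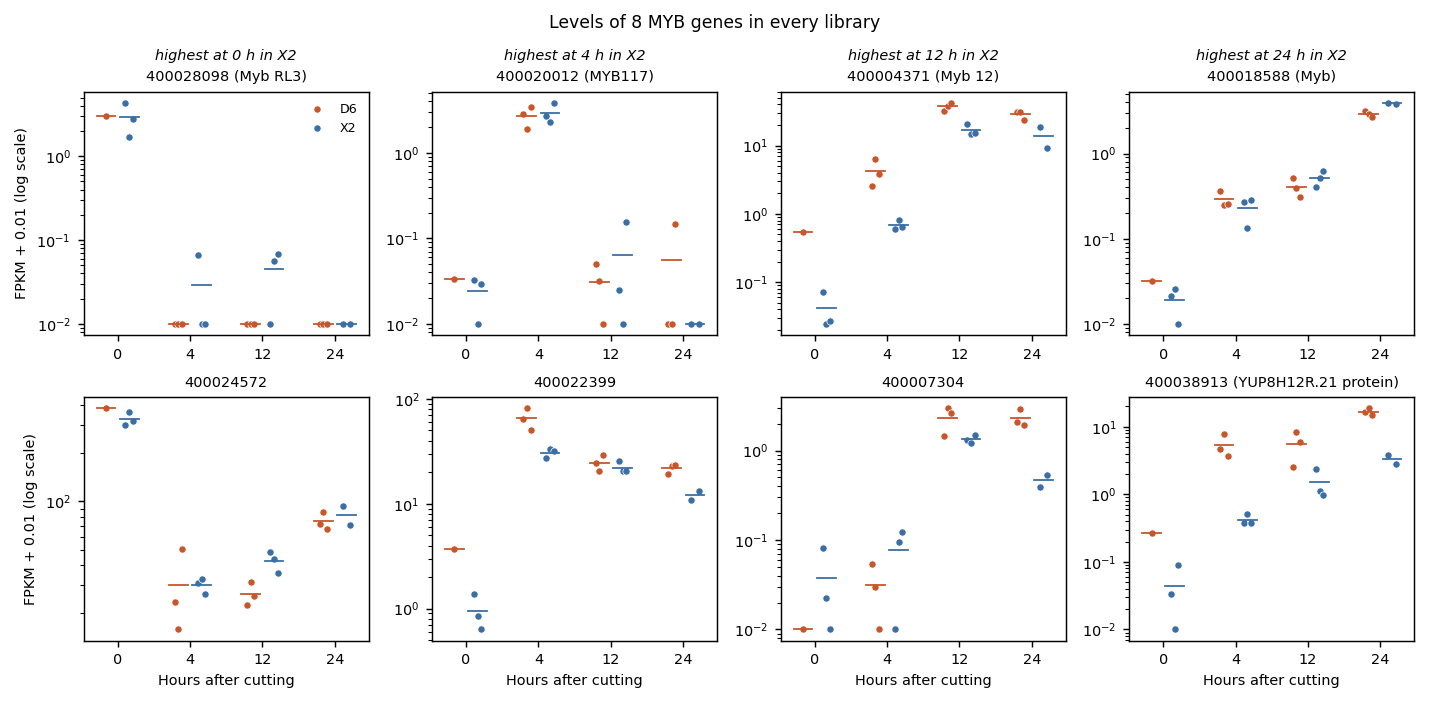
FPKM + 0.01 on a log axis in every library for 8 MYB genes, in columns by the hour of the highest X2 mean, with D6 points left of X2 points at each hour after cutting and bars at the mean, each panel being titled with the digits that follow PGSC0003DMG. Myb RL3 is at or near 0 after 0 h, MYB117 is above 1.9 FPKM at 4 h only, and Myb 12 and the YUP8H12R.21 protein gene lie higher in D6 than in X2 at each hour from 4 h on.

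Of the 8 members highest at 12 h, Myb 12 (PGSC0003DMG400004371) changed most, and its X2 means at 12 and 24 h lay within 1 SD of each other. MYB12 of Arabidopsis and tomato activates genes of flavonol synthesis. The single D6 library of 0 h held 0.540 FPKM, and those of 4 h held 2.51, 6.36 and 3.80 FPKM, of 12 h 31.9, 37.8 and 42.1, and of 24 h 31.2, 30.5 and 23.9. The X2 libraries of 0 h held 0.0620, 0.0147 and 0.0175 FPKM, those of 4 h 0.599, 0.803 and 0.627, of 12 h 20.5, 14.7 and 15.0, and of 24 h 18.8 and 9.18. In both cultivars all libraries of 12 and 24 h were above all of 4 h, and within D6 the log2FC of 12 h against 4 h was 3.20 ± 0.30 (SE, adjusted p = 0.00013). PGSC0003DMG400007304 had at most 2 reads in the D6 libraries of 0 and 4 h and reached 2.33 ± 0.794 FPKM at 12 h and 2.31 ± 0.530 at 24 h (SD, n = 3 each), with 94, 174 and 156 reads at 12 h against 2, 1 and 0 at 4 h. It passed the filter through the later hour alone, and its log2FC for this step was 4.28, 6.47 with a pseudocount of 0.01 and 1.68 with 1, so none is given as its size. PGSC0003DMG400018331 had the highest 12 h level of the group after Myb 12, 14.4 ± 0.638 FPKM in D6 and 13.8 ± 3.15 in X2 (SD, n = 3 each), though its D6 mean was higher at 4 h (18.4 ± 6.26).

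The 24 h group had its highest X2 mean at the last hour. Of its 17 members with means of at least 0.5 FPKM in both cultivars, 9 (52.9%) were also highest at 24 h in D6, as were 63.4% of all such genes. The gene described as Myb (PGSC0003DMG400018588) had 0.0220 FPKM at 0 h in D6 and 3.17, 2.90 and 2.67 at 24 h, against 0.0110, 0.0156 and 0 FPKM at 0 h in X2 and 3.94 and 3.87 at 24 h. It was already above its 0 h level at 4 h, with 0.280 ± 0.0666 FPKM in D6 and 0.220 ± 0.0848 in X2 (SD, n = 3 each). All libraries of 12 h were at 0.621 FPKM or below. The log2FC between 12 and 24 h within D6 was 2.61 ± 0.23 (SE, adjusted p = 0.000412, or 1.49 with a pseudocount of 1). The gene passed the filter for that step through the later hour alone. PGSC0003DMG400031044 rose in the same step, to 2.90, 8.40 and 4.21 FPKM at 24 h in D6 against 0.166, 0.959 and 0.601 at 12 h (log2FC 3.04 ± 0.55, adjusted p = 0.00504, or 1.902 with a pseudocount of 1). In X2 this gene had 0.636 and 1.52 FPKM at 24 h against 0.754, 0.306 and 0.246 at 12 h, and these libraries overlapped. The group also has members already high at 4 h. PGSC0003DMG400028119 was at 12.1, 23.7 and 19.7 FPKM in D6 and 16.02, 20.1 and 21.1 in X2 at that hour, from 0.732 in D6 and at most 0.752 in X2 at 0 h, and its X2 means at 12 and 24 h lay within 1 SD. MYB86-like (Novel03381), a predicted gene on the minus strand of SolTub_3.0 chr8:55193435-55199105, stayed low, at 1.03 ± 0.366 FPKM in D6 (SD, n = 3) and 0.792 and 1.66 FPKM in X2 at 24 h. Its D6 mean was higher at 12 h (1.46 ± 0.456 FPKM, SD, n = 3).

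Further members of the 12 and 24 h groups changed at lower levels. PGSC0003DMG400003890, of the 12 h group, had 4.14, 5.23 and 4.37 FPKM at 12 h in D6 against 2.19, 1.93 and 1.34 at 4 h, and in X2 5.13, 4.04 and 5.46 at 12 h against 0.837, 0.926 and 0.779 at 4 h. PGSC0003DMG400012126 had 1.88, 1.77 and 2.58 FPKM at 12 h in D6 against 0.0447, 0.435 and 0 at 4 h. It passed the filter through the later hour alone. Its log2FC for this step was 3.44, 5.04 with a pseudocount of 0.01 and 1.42 with 1, so none is given as its size. PGSC0003DMG400008834 dropped within D6, with 0.324, 0.458 and 0.436 FPKM at 24 h against 1.25, 1.02 and 1.30 at 12 h (log2FC -1.35 ± 0.25, adjusted p = 0.0056), a call lost with a pseudocount of 1 (-0.64). It passed the filter for this step through 12 h alone. PGSC0003DMG400015668 had 1.34 FPKM in the single 0 h library of D6 and 1 read in each of the 3 X2 libraries of that hour. Within D6 it had 1.79, 1.48 and 1.197 FPKM at 24 h against 0.232, 0.0859 and 0.311 at 12 h (log2FC 2.42 ± 0.36, adjusted p = 0.00246, or 1.04 with a pseudocount of 1). It passed the filter for this step through the later hour alone.

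Few members were too low to measure at any given hour. In D6, 10 members had 3 reads or fewer in the 0 h library, and 4, 3 and 2 members had so few in every library of 4, 12 and 24 h. In X2 this held for 8 members at 0 h and for 2, 1 and 3 members at 4, 12 and 24 h. Among those low at 0 h in D6, PGSC0003DMG400000340 had 0.0643 FPKM at 0 h in D6 and 2.14, 1.96 and 1.31 at 24 h, against 0.0213, 0.0151 and 0.0905 FPKM at 0 h in X2 and 1.99 and 1.70 at 24 h.

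The D6 libraries of 4, 12 and 24 h took no part in the choice of the members, so the steps between these hours were tested. At 12 h against 4 h, 26 of 75 tested members were called in D6, where 27.5% of all genes were, 10 of them higher (15.0% of all genes) and 16 lower (12.5%). At 24 h against 12 h the call took 17 of 72 members (10.6% of all genes), 13 higher (6.53%) and 4 lower (4.04%). Over the longer step, 24 h against 4 h, it took 36 of 78 (35.8% of all genes), 16 higher (19.6%) and 20 lower (16.2%). The median log2FC of the members was -0.33, 0.09 and -0.10 in these steps and that of all genes was -0.02, -0.02 and -0.05. All called members had groups whose libraries did not overlap, and all had an adjusted p of at most 0.05. The share of called genes without overlap was not counted over all genes, so nothing is read from it. The members were picked as genes that change in X2, and a share of called genes above the background is what such a choice can bring.

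Split by their hour in X2, the members moved in D6 in different directions, and so did all genes split in the same way. Of the 23 members highest at 4 h in X2, 22 could be tested in D6, and 17 of them were lower at 24 h than at 4 h while none was called higher. Among all genes highest at 4 h in X2, 40.2% of 6501 were called lower in this D6 step and 0.538% higher. Of the 19 members highest at 24 h, 10 were higher at 24 h than at 4 h in D6 and 1 was lower, PGSC0003DMG400011250. The share of all genes with that X2 hour was 52.6% higher and 2.05% lower. The median log2FC in this step was -1.58 for the 4 h group of members and 1.36 for the 24 h group, against -0.83 and 1.16 for all genes of the same X2 hours. Members highest at 12 h gave 3 of 8 higher in D6 at 12 h than at 4 h, 2 of 8 lower at 24 h than at 12 h, and none the other way. Of all genes highest at 12 h in X2, 26.0% were higher and 1.47% lower in the first of these steps, and 7.32% lower and 0.909% higher in the second. Of the 29 tested members highest at 0 h, 6 were called between 4 and 24 h in D6, 4 higher and 2 lower, and of all 4929 such genes 12.1% were higher and 7.49% lower.

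**Figure D3:**
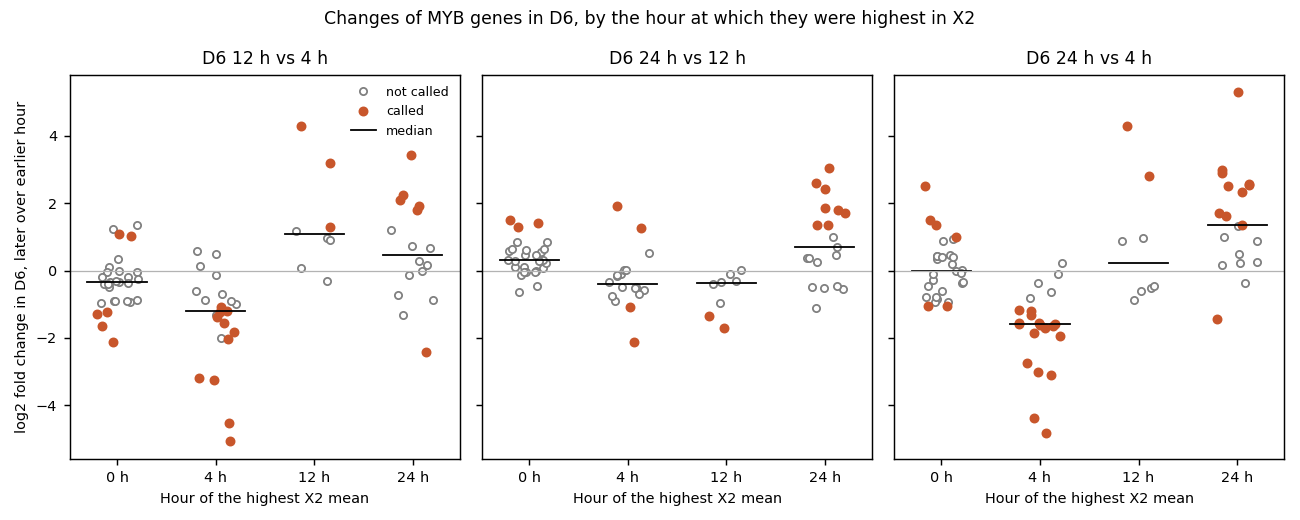
Log2 fold change of each tested MYB gene in D6 (later over earlier hour) in 3 steps, by the hour of its highest X2 mean, with filled points for called genes and bars at the median. For 24 h against 4 h, the members highest at 4 h in X2 have a median of -1.58 with 17 of 22 called lower, and those highest at 24 h have a median of 1.36 with 10 of 19 called higher. Among all genes of these X2 hours, the medians were -0.83 and 1.16, with 40.2% called lower and 52.6% called higher.

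Within D6, PGSC0003DMG400017223 and PGSC0003DMG400008761 show how the 4 h group parted later. Both fell between 4 and 12 h, the first to 5.68 ± 2.43 FPKM at 12 h against 22.4 ± 3.70 at 4 h and the second to 1.29 ± 0.445 against 12.7 ± 1.46 (SD, n = 3 each). PGSC0003DMG400017223 stayed low at 24 h, with 2.95, 2.09 and 2.47 FPKM (log2FC against 4 h -3.11 ± 0.18, adjusted p = 1.47e-05). PGSC0003DMG400008761 was higher again, with 5.31, 5.63 and 4.12 FPKM at 24 h against 1.04, 1.03 and 1.805 at 12 h (log2FC 1.91 ± 0.24, adjusted p = 0.00135). PGSC0003DMG400009033 instead was still high at 12 h, and dropped to 13.2, 12.9 and 13.5 FPKM at 24 h against 61.3, 60.5 and 51.3 at 12 h (log2FC -2.12 ± 0.10, adjusted p = 3.21e-05).

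The hour of the highest value was the same in both cultivars for 65 of the 82 members with any reads in D6, although D6 had 1 library at 0 h. Among the 74 members with a mean of at least 0.5 FPKM in both cultivars, it was the same for 57 (77.0%), and for 73.2% of all 18807 such genes. The change at 12 h against 4 h had the same sign in both cultivars for 62 of these 74 members (83.8%) and for 83.6% of all such genes. At 24 h against 12 h it was 58 members (78.4%) and 77.0% of all, and at 24 h against 4 h 67 members (90.5%) and 84.7% of all. Pearson's r of the log2 changes between the cultivars was 0.84, 0.75 and 0.89 across the members in these steps and 0.83, 0.77 and 0.87 across all such genes, a description over genes that share their libraries. Of the listed genes, 33 of 83 MYB (39.8%) were highest at 0 h in X2, against 14 of 81 AP2-EREBP (17.3%), 6 of 45 WRKY (13.3%) and 7 of 47 bHLH genes (14.9%). At 4 h it was 23 MYB genes (27.7%), against 52 AP2-EREBP (64.2%), 27 WRKY (60.0%) and 24 bHLH genes (51.1%). Over the other 1074 listed genes, these families included, 33.9% were highest at 0 h and 41.0% at 4 h, and over all 18807 genes above it was 25.2% and 32.5%. All the listed genes were chosen by the same X2 contrasts, and the difference between families was not tested.

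D6 was then compared with X2 at the same hour. The X2 libraries of these comparisons also served in the choice of the members, and a member low in both cultivars drops out at the filter of 0.5 FPKM. At 4 h, 16 of 72 tested members were called, where 18.1% of all genes were, 11 higher in D6 (9.79% of all genes) and 5 lower (8.28%). At 12 h it was 11 of 71 (12.6% of all genes), 5 higher (6.55%) and 6 lower (6.05%), and at 24 h 13 of 72 (11.8%), 8 higher (6.47%) and 5 lower (5.31%). The median log2FC of the members was -0.08, -0.05 and -0.02, and that of all genes was -0.16, -0.10 and -0.05, or -0.01, 0.00 and 0.00 with size factors, under which 13 members were higher and 4 lower at 4 h. The share of all genes called under that scaling is not given beside this count, so nothing is read from it. In all, 27 of the 79 members tested at 1 hour or more were called at 1 hour or more (34.2%, against 24.5% of all 21368 genes), 16 of them higher in D6 (20.3%, against 13.1%) and 11 lower (13.9%, against 11.6%), with no member on both sides. Under size factors, 3 of these calls of D6 against X2 were lost, those of PGSC0003DMG400005626 at 4 h, PGSC0003DMG400027077 at 12 h and PGSC0003DMG400025632 at 24 h.

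Higher in D6 at all 3 hours were Myb 12, the YUP8H12R.21 protein gene (PGSC0003DMG400038913) and PGSC0003DMG400023570, the conserved gene of unknown function. PGSC0003DMG400038913 had 4.69, 7.70 and 3.63 FPKM in D6 at 4 h, against 0.366, 0.494 and 0.362 in X2, and 16.7, 18.6 and 15.0 in D6 at 24 h, against 3.86 and 2.77 in X2. Its log2FC was 3.36 ± 0.30 at 4 h (SE, adjusted p = 0.000211, or 2.12 with a pseudocount of 1) and 2.32 ± 0.17 at 24 h (adjusted p = 0.000483). At 12 h, with 2.53, 8.30 and 6.01 FPKM in D6 against 2.39, 1.12 and 0.971 in X2, the call (log2FC 1.79, adjusted p = 0.0227) was lost without replicate 2 or 3 of either cultivar (1.44 to 1.67, adjusted p = 0.0707 to 0.0802) with a replicate block (adjusted p = 0.0558) and with limma-voom on recovered reads (1.88, adjusted p = 0.0355, unadjusted p = 0.0107). PGSC0003DMG400023570 had 4.37, 3.34 and 4.17 FPKM in D6 at 4 h, against 0.314, 0.486 and 0.0985 in X2 (log2FC 3.47 ± 0.40, adjusted p = 0.000596, or 1.94 with a pseudocount of 1), and its D6 library at 0 h had no read. Its difference was 2.23 ± 0.20 at 12 h (adjusted p = 0.000227) and 1.29 ± 0.25 at 24 h, where it was 0.91 and no longer called without X2 replicate 1. At 4 h, PGSC0003DMG400023570 and PGSC0003DMG400038913 passed the filter through D6 alone.

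Myb 12 was 2.39 ± 0.33 higher in D6 at 4 h on the log2 scale (SE, adjusted p = 0.00131, or 1.57 with a pseudocount of 1), 1.16 ± 0.16 at 12 h (adjusted p = 0.00136) and 1.10 ± 0.29 at 24 h (adjusted p = 0.04). The 24 h call was lost without X2 replicate 3 or any 1 of the D6 replicates (0.59 to 1.23), and without the filter on low values (unadjusted p = 0.0104). Also higher in D6 at 4 h was the gene described as an R2r3-myb transcription factor (PGSC0003DMG400011243), with 2.72, 7.69 and 2.73 FPKM in D6 against 1.27, 0.929 and 1.09 in X2, a call lost without X2 replicate 2 or 3 (1.63 to 1.74). At 24 h it had 4.13, 5.84 and 6.75 FPKM in D6 against 2.18 and 1.96 in X2 (log2FC 1.36 ± 0.23, adjusted p = 0.00855), a call lost in 1 model over all libraries (unadjusted p = 0.0121). PGSC0003DMG400007304 was higher in D6 at 24 h, with 2.10, 2.91 and 1.91 FPKM against 0.384 and 0.525 in X2 (log2FC 2.11 ± 0.26, adjusted p = 0.00329, or 1.17 with a pseudocount of 1). It passed the filter at that hour through D6 alone. PGSC0003DMG400031044 was 2.13 ± 0.51 higher at 24 h (adjusted p = 0.0277), a call lost without X2 replicate 1 (1.56) or D6 replicate 3 (2.21) and with limma-voom (2.21, unadjusted p = 0.0134).

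On the other side, PGSC0003DMG400015536, PGSC0003DMG400030397 and PGSC0003DMG400011294 were lower in D6. PGSC0003DMG400015536 had 4.83, 3.92 and 8.90 FPKM in D6 at 4 h against 37.5, 36.3 and 27.5 in X2 (log2FC -2.57 ± 0.29, adjusted p = 0.000562) and 15.9, 13.2 and 14.3 at 24 h against 44.0 and 44.9 (-1.62 ± 0.11, adjusted p = 0.000336). Its single D6 library at 0 h had 44.2 FPKM and the X2 libraries 127, 117 and 183. PGSC0003DMG400011294 had 9.07, 9.34 and 6.48 FPKM in D6 at 4 h against 29.2, 28.7 and 26.0 in X2 (-1.76 ± 0.15, adjusted p = 0.000169), and 1.69, 1.69 and 3.11 at 24 h against 8.96 and 14.1 (-2.38 ± 0.32, adjusted p = 0.00421). Both genes differed between cultivars without overlap at these hours. PGSC0003DMG400030397 was lower in D6 at 24 h (-1.55 ± 0.14, adjusted p = 0.000975). It was also called at 4 h (-1.42), where it passed the filter through X2 alone, and at 12 h (-1.48). The 4 h call was lost without any 1 of X2 replicates 1 to 3 or D6 replicates 1 and 2 (-1.49 to -1.19) with a replicate block (adjusted p = 0.0374) and with a pseudocount of 1 (-0.66), and the 12 h call without X2 replicate 1 (-1.28) and with a pseudocount of 1 (-0.998).

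PGSC0003DMG400002489 was lower in D6 at 4 h (7.14, 4.51 and 6.16 FPKM against 17.1, 18.1 and 18.3 in X2, log2FC -1.60 ± 0.16, adjusted p = 0.000397) and at 12 h (-1.21 ± 0.13, adjusted p = 0.000485). At 12 h PGSC0003DMG400001504 was lower as well, with 0.137, 0.0910 and 0.449 FPKM in D6 against 2.37, 1.62 and 1.48 in X2 (-2.69 ± 0.42, adjusted p = 0.00267, or -1.201 with a pseudocount of 1), and so was PGSC0003DMG400023405, with 3.46, 2.21 and 2.58 FPKM against 8.10, 7.18 and 7.06 (-1.42 ± 0.17, adjusted p = 0.000827). PGSC0003DMG400018427 was higher in D6 at that hour, with 1.27, 1.24 and 1.73 FPKM against 0.235, 0.585 and 0.522 in X2 (1.51 ± 0.32, adjusted p = 0.00917), a call lost with a pseudocount of 1 (0.74). At 12 h, PGSC0003DMG400018427 passed the filter through D6 alone and PGSC0003DMG400001504 through X2 alone.

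**Figure D4:**
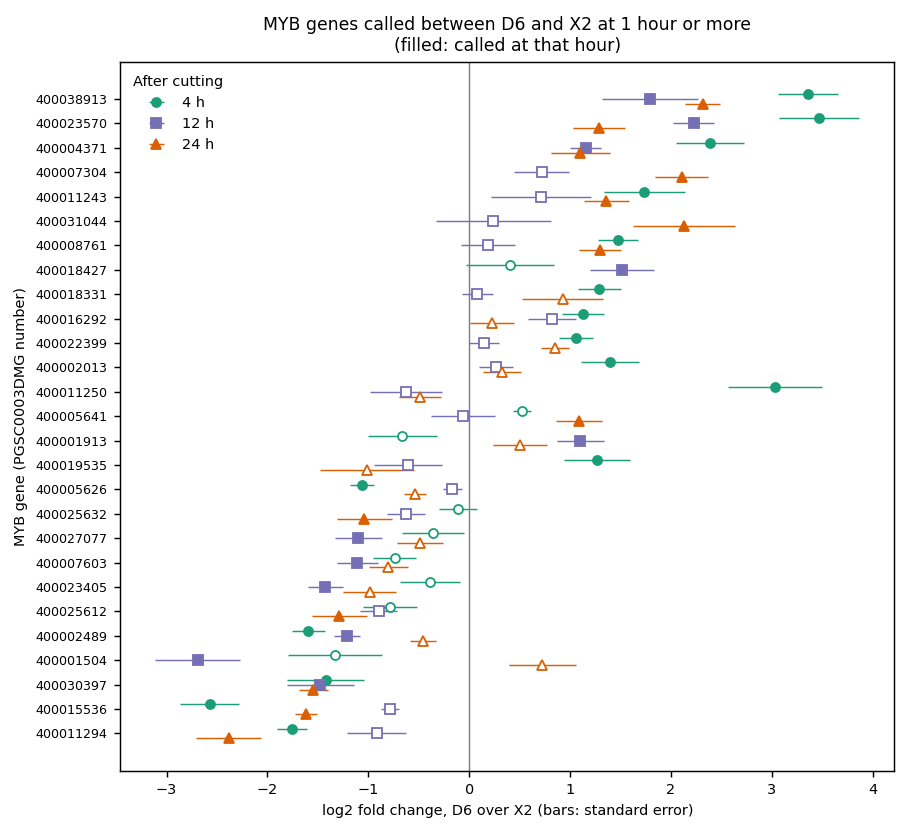
Log2 fold change of D6 over X2 with its standard error at 4, 12 and 24 h for the 27 MYB genes called between the cultivars at 1 hour or more, with filled symbols where the gene was called. The 16 genes called higher in D6 lie right of 0 at those hours, up to 3.47 for PGSC0003DMG400023570 at 4 h, and the 11 called lower lie left of it, down to -2.69 for PGSC0003DMG400001504 at 12 h.

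PGSC0003DMG400018092 had no read in any of the 10 D6 libraries. In the 11 X2 libraries it had 0.308 to 1.14 FPKM, with 0.931, 0.762 and 1.14 at 0 h and 0.788 and 0.308 at 24 h. With 3 reads per library as the limit, it was at least 14.1-fold lower in D6 than in X2 at 4 h, at least 13.4-fold at 12 h and at least 12.99-fold at 24 h. At this low level it did not pass the filter between the cultivars, and no test was made. No other member was without reads in all D6 libraries, and none was in all X2 libraries.

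The change between hours was compared between the cultivars as a difference of differences. For 12 h against 4 h, 10 of 74 tested members were called, where 6.67% of all genes were, 3 with a higher (2.44%) and 7 with a lower change in D6 (4.23%), and 8 of the 10 had an adjusted p of at most 0.05. The largest difference was that of PGSC0003DMG400011250, which fell between these hours in D6 and rose in X2. It had 0.922, 0.307 and 0.455 FPKM at 12 h in D6 against 3.07, 4.35 and 2.37 at 4 h, and in X2 0.898, 0.709 and 0.944 at 12 h against 0.391, 0.554 and 0.0984 at 4 h (difference -3.65 ± 0.63, adjusted p = 0.00477, or -1.91 with a pseudocount of 1). PGSC0003DMG400009033 went the other way, with 61.3, 60.5 and 51.3 FPKM at 12 h in D6 against 38.8, 46.4 and 38.0 at 4 h, and in X2 34.5, 32.4 and 27.8 at 12 h against 60.9, 66.9 and 61.3 (1.49 ± 0.15, adjusted p = 0.000418). Of the 8 members highest at 12 h in X2, 5 had a called lower change in D6. They were grouped by their X2 level at 12 h, which enters this difference with the opposite sign, so nothing is read from the count, and of all 3868 genes with that X2 hour 6.59% were called lower and 2.48% higher. The 5 include Myb 12, whose difference (-1.23, adjusted p = 0.0568) was lost with a pseudocount of 1 (-0.46), with limma-voom (-1.46, unadjusted p = 0.0224) and without any 1 of 8 of the 12 libraries (-1.30 to -0.89). These were replicates 1 and 3 of both hours in X2, replicates 2 and 3 of 4 h in D6 and replicates 1 and 2 of 12 h in D6. The other members among the 5 were PGSC0003DMG400019535 (-1.87 ± 0.49, adjusted p = 0.0308), PGSC0003DMG400018331 (-1.21), PGSC0003DMG400002013 (-1.13) and PGSC0003DMG400003890 (-1.08), of which PGSC0003DMG400019535 kept its call without each library in turn. With a pseudocount of 1, the calls of PGSC0003DMG400019535 (-0.86), PGSC0003DMG400002013 (-0.77) and PGSC0003DMG400003890 (-0.67) were lost, and that of PGSC0003DMG400018331 was lost in 1 model over all libraries (unadjusted p = 0.0217). The X2 means of PGSC0003DMG400011250 and PGSC0003DMG400019535 at 4 h were below 0.5 FPKM, so their adjusted p describes the values only.

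**Figure D5:**
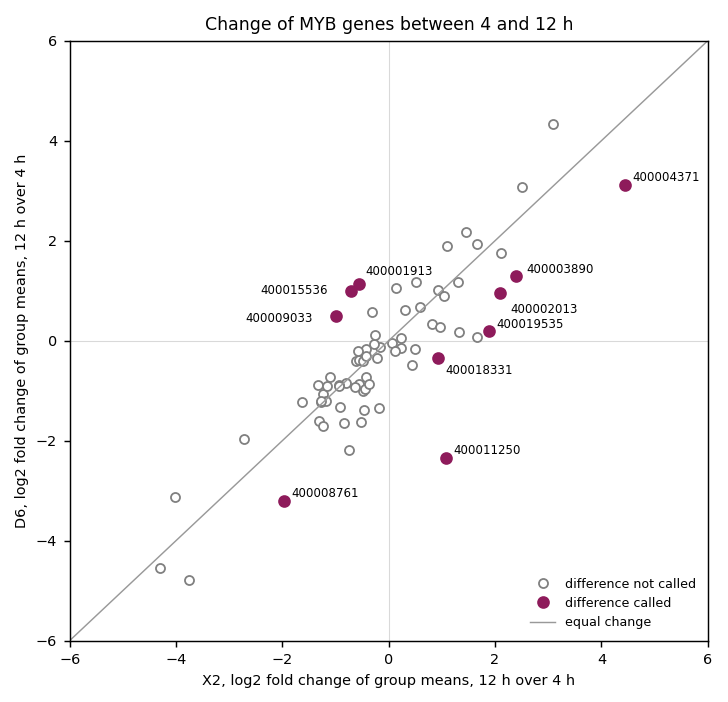
Log2 fold change of the group means at 12 h over 4 h, on the FPKM + 0.1 scale, in D6 (vertical) and X2 (horizontal) for the 74 tested MYB genes, with the line of equal change and filled points where the difference was called. PGSC0003DMG400011250 falls in D6 and rises in X2, PGSC0003DMG400009033 does the opposite, and most other points lie along the line.

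For 24 h against 12 h, 2 of 74 members were called, where 3.75% of all genes were. PGSC0003DMG400001504 had 0.940, 0.738 and 0.553 FPKM at 24 h in D6 against 0.137, 0.0910 and 0.449 at 12 h, and in X2 0.493 and 0.323 at 24 h against 2.37, 1.62 and 1.48 at 12 h (difference 3.42 ± 0.58, adjusted p = 0.0143, or 1.506 with a pseudocount of 1). It moved in opposite directions, with no overlap between hours in either cultivar. Its means in D6 at 12 h and in X2 at 24 h were below 0.5 FPKM, so the lack of overlap and the adjusted p describe the values only. The other was PGSC0003DMG400007304 (1.39 ± 0.40, adjusted p = 0.0828), lost without X2 replicate 1 or 3 of 12 h, X2 replicate 1 of 24 h or D6 replicate 2 of 24 h (1.204 to 1.402), with a pseudocount of 1 (0.68), in 1 model over all libraries and with limma-voom. The count was 5 without X2 replicate 1 of 24 h, 4 without D6 replicate 3 of 24 h, and 1 without X2 replicate 1 of 12 h or D6 replicate 2 of 24 h.

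The phenylpropanoid and flavonoid genes that the study's tables describe are 22, most of them picked by the study for their change in X2. In D6 at 12 h against 4 h, 10 of 20 tested were called higher and 1 lower (15.0% and 12.5% of all genes), and 5 of the 22 were called higher in D6 than in X2 at 24 h with none lower (6.47% and 5.31% of all genes). Chalcone synthase 2 (PGSC0003DMG400019110), at the entry to flavonoid synthesis, had 802 ± 124 FPKM at 12 h in D6 against 31.8 ± 5.29 at 4 h (SD, n = 3 each, log2FC 4.65 ± 0.16, adjusted p = 1.02e-05), and 824 ± 70.6 at 12 h in X2. Chalcone synthase 1B (PGSC0003DMG400029620) reached 1546 ± 210 FPKM at 24 h in D6 (SD, n = 3) against 626 ± 194 in X2 (SD, n = 2, log2FC 1.33 ± 0.23, adjusted p = 0.0101). Flavanone 3 beta-hydroxylase (PGSC0003DMG400003563) had 463 ± 85.9 FPKM in D6 and 422 ± 26.9 in X2 at 12 h (SD, n = 3 each), a difference of 0.12 ± 0.13 (adjusted p = 0.518). Phenylalanine ammonia-lyase (PGSC0003DMG402021549), the entry enzyme of the phenylpropanoid pathway, had 361 ± 47.8 FPKM in D6 and 211 ± 11.2 in X2 at 12 h (SD, n = 3 each, 0.77 ± 0.11, adjusted p = 0.00168), below the fold needed for a call. Its D6 library of 0 h held 670 FPKM, against 56.7 ± 24.3 in X2 (SD, n = 3). At 4 h, the first 3 of these genes differed between D6 and X2 by -0.48 to -0.23 in log2FC, with adjusted p of 0.182 to 0.476. The phenylalanine ammonia-lyase gene differed by 0.53 (adjusted p = 0.0435). Flavonol synthase (PGSC0003DMG400014093) differed by -0.20 at 4 h, 0.12 at 12 h and 0.67 at 24 h (adjusted p = 0.614, 0.294 and 0.035), with no call. Of the 18 tested at 4 h, 3 were called higher in D6 and 1 lower (9.79% and 8.28% of all genes). At 12 h it was 4 higher and 1 lower of 21 (6.55% and 6.05%). Whether Myb 12 or another member acts on these genes was not tested.

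A gene described as an R2r3-myb transcription factor but not found in the study's list, PGSC0003DMG400016800, had 6.82 FPKM in D6 and 1.18 in X2 at 24 h, and at most 0.0737 in D6 and 0.0554 in X2 at 0 and 4 h. The Myb-like gene of the SHAQKYF class, PGSC0003DMG400028830, which the list places in the G2-like family, had 3.50 FPKM in D6 and 3.38 in X2 at 12 h. Neither is a member.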

How the data were processed

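RNA-seq libraries of D6 and X2 tubers were analysed from the deposited table. The authors mapped reads to the potato genome SolTub_3.0 with HISAT, assigned them to genes with featureCounts, and the deposited values are FPKM per library. The labels' processing notes name CASAVA 1.8, Bowtie 0.12.2 and a mouse build, which do not match these methods and were set aside. The X2 4 h replicate 2 name heads 2 columns. The first was used, because its mean with the other replicates equals the group FPKM given by the study, and 1 column of values was not used. Columns of the authors' own fold changes were not used. The members and gene lists were chosen with earlier results of these data known.

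Genes with a mean of at least 0.5 FPKM over the compared libraries were tested on log2(FPKM + 0.1) with limma 3.58.1 (trended empirical Bayes) in R 4.3.3, with Benjamini-Hochberg adjustment over all genes tested. A call needed a log2FC of at least 1 in size and an unadjusted p of at most 0.01. Hourly means, figures and counts were made with Python 3.11.15 with matplotlib 3.10.9, scipy 1.17.1, pandas 2.3.3 and numpy 2.4.6. FPKM values were taken as whole multiples of 1 read, and reads were recovered for 29390 of 29390 genes above 0 in at least 3 libraries. A gene length was accepted only with all values within 0.05 of a whole read, so all 539713 values meet this by design. The length found equalled the listed length for 1601 of 3507 predicted genes. On the recovered reads limma-voom was run as an alternative. The fits were tested on simulated data.

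Named members are the 5 with the largest X2 range in each hour group among those reaching 1 FPKM, the 3 largest called changes in each direction of each tested comparison, the 3 most abundant, those with a specific description, and those whose libraries of an hour all had at most 3 reads, of which single ones are named. PGSC0003DMG400028119, PGSC0003DMG400017223 and any other member outside this rule were chosen after their values were seen. Same-numbered D6 libraries of 12 and 24 h deviated together, with each of the 3 pairs over 0.1, and the numbers come from the column names. Between 12 and 24 h of X2 both pairs were also over 0.1 (0.144 and 0.214), but 2 pairs are too few to call them paired. Descriptions came from the study's tables, which cover 729 genes. Alternatives were another scaling, filter, pseudocount, threshold, model, a replicate block and leaving out each library.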

Additional observations from a re-analysis of the deposited data

Results flagged for a closer look

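For 12 members the change between hours differed between D6 and X2 in limma's test of the difference itself, each value being the D6 change minus the X2 change on the log2 scale. For 12 h against 4 h, the change was higher in D6 for PGSC0003DMG400015536 (1.79 ± 0.33 SE, adjusted p = 0.00704), PGSC0003DMG400001913 (1.76 ± 0.43, adjusted p = 0.0225) and PGSC0003DMG400009033 (1.49 ± 0.15, adjusted p = 0.000418). It was lower in D6 for PGSC0003DMG400011250 (-3.65 ± 0.63, adjusted p = 0.00477), PGSC0003DMG400019535 (-1.87 ± 0.49, adjusted p = 0.0308), PGSC0003DMG400008761 (-1.29 ± 0.35, adjusted p = 0.0358), PGSC0003DMG400018331 (-1.21 ± 0.28, adjusted p = 0.0199) and PGSC0003DMG400003890 (-1.08 ± 0.27, adjusted p = 0.0262). Myb 12 (PGSC0003DMG400004371, -1.23 ± 0.38, adjusted p = 0.0568) and PGSC0003DMG400002013 (-1.13 ± 0.35, adjusted p = 0.0559) were called on the unadjusted p alone. With X2 means below 0.5 FPKM at 4 h, the adjusted p of PGSC0003DMG400011250 and PGSC0003DMG400019535 describes the values only.

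Without 1 library, the call was lost for PGSC0003DMG400008761 (-1.10 without X2 replicate 2 of 4 h), PGSC0003DMG400018331 (-0.95 without D6 replicate 2 of 4 h), PGSC0003DMG400003890 (-0.995 to -0.940 without X2 replicate 3 of 12 h or D6 replicate 1 of 4 h) and PGSC0003DMG400002013 (-1.18 to -0.90 without any 1 of 6 libraries, replicate 1 of both hours in D6 and X2 and replicate 2 of both hours in D6). For Myb 12 it was lost without any 1 of 8 libraries (-1.30 to -0.89). With a pseudocount of 1 the calls of PGSC0003DMG400019535 (-0.86), PGSC0003DMG400003890 (-0.67), PGSC0003DMG400002013 (-0.77) and Myb 12 (-0.46) were lost, and in 1 model over all libraries those of PGSC0003DMG400008761 (unadjusted p = 0.0822) and PGSC0003DMG400018331 (unadjusted p = 0.0217).

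For 24 h against 12 h, the change was higher in D6 for PGSC0003DMG400001504 (3.42 ± 0.58, adjusted p = 0.0143) and PGSC0003DMG400007304 (1.39 ± 0.40, adjusted p = 0.0828), the second lost without any 1 of 4 libraries (1.204 to 1.402) and with a pseudocount of 1 (0.68). The X2 libraries of these differences also served in the choice of the members. PGSC0003DMG400001504 and PGSC0003DMG400007304 had X2 means below 0.5 FPKM at 24 h, so their adjusted p describes the values only.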

How the results depend on the processing

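Of 131 called results of members in the tested comparisons, 81 kept their call under every alternative run on single members, 50 lost it under at least 1 and 0 reversed. The stricter fold and the adjusted p as thresholds were run on counts of members only. The call was lost without some library for 38 and only under another setting for 12. A pseudocount of 1 ended 35 calls, limma-voom 9, 1 model over all libraries 6, the replicate block 5, size factors 3, no filter 2 and a pseudocount of 0.01 ended 1. For single members, the model over all libraries, the block and voom, and all alternatives for members outside the naming rule, were added after seeing the data. With a log2FC of at least 1.5, the members called were 17 for D6 12 h against 4 h, 10 for 24 h against 12 h, 8, 4 and 6 for D6 against X2 at 4, 12 and 24 h, and 4 and 1 for the differences of change, since a stricter fold leaves fewer. With a pseudocount of 1, which shrinks low genes, 6 were called for D6 against X2 at 12 h. The difference of change for 24 h against 12 h fell to 1 member with an adjusted p of at most 0.05, with a mean of at least 1 FPKM, and with voom.

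Leaving out each library in turn gave 45 to 50, 50 to 58 and 43 to 53 members for X2 at 4, 12 and 24 h against 0 h, 24 to 28, 13 to 17 and 34 to 41 for D6 at 12 h against 4 h, 24 h against 12 h and 24 h against 4 h, and 13 to 16, 9 to 12 and 9 to 13 for D6 against X2. It gave 8 to 11 and 1 to 5 for the differences of change. The X2 hour groups held 31 to 33, 23 to 24, 7 to 10 and 17 to 21 members, and 63 to 67 had the same hour in D6. With the replicate block the counts were 48, 53 and 47 for X2, 28, 18 and 35 for D6, 14, 10 and 13 for D6 against X2 and 9 and 2 for the differences. The pairing moved no count by over 1.5 times. It ended the calls of PGSC0003DMG400038913 at 12 h, PGSC0003DMG400030397 and PGSC0003DMG400019535 at 4 h, PGSC0003DMG400012126 for 24 h against 4 h and PGSC0003DMG400002013 in the difference of change, and no other of the 131. At 24 h X2 had 2 libraries and D6 had 1 at 0 h, so D6 against 0 h could not be tested.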
